A study of Mus musculus with 6 samples.

Results

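The 10 cyclin and cyclin-dependent kinase (CDK) genes that carry a cell through G1 and into S phase were followed in mouse oocytes and early embryos. They are the D-type cyclins Ccnd1, Ccnd2 and Ccnd3, the E-type cyclins Ccne1 and Ccne2, the A-type cyclins Ccna1 and Ccna2, and the kinases Cdk2, Cdk4 and Cdk6. They were chosen by symbol, and 10 of 10 were found, each at a single locus, among the 23308 symbols of the tables. The 6 libraries came from germinal vesicle (GV) oocytes, which are fully grown and held in meiotic prophase, and from 4-cell embryos. Of GV oocytes there were 2 wild-type and 2 YAP-null libraries, and of 4-cell embryos 1 of each. The labels conflict on the embryos: titles and the stage field of those 2 samples give the 4-cell stage, while their source field names GV oocytes, and the titles were followed. YAP-null stands for YAP-/- in the labels, where Yap1, the gene of the Hippo pathway coactivator YAP, is given as deleted. Every library held 60 oocytes or embryos of females on an ICR background, 21 to 23 days old, that were injected with the gonadotrophins PMSG/hCG and, for embryos, mated. Males are not described, and neither is the way in which the gene was deleted or whether the 2 GV libraries of a genotype came from different animals. P-values therefore measure only the spread between these samples, which may be technical.

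In dividing cells the D-type cyclins bind CDK4 and CDK6 in G1 and start the phosphorylation of the retinoblastoma protein RB, which holds back the E2F transcription factors. E-type cyclins with CDK2 complete that step and start DNA replication, and A-type cyclins with CDK2 carry S phase forward. GV oocytes do not replicate DNA, while cleavage-stage embryos replicate it and divide in each cell cycle. Levels are given in FPKM, fragments per length of transcript and per depth of the library, which compares genes per length and is a share of each library's RNA rather than an amount per embryo. Differences are given on the log2(FPKM + 1) scale, which understates the change of low genes.

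Yap1 (chromosome 9, 7932001 to 8004596 in mm9) stood at 248 and 154 FPKM in wild-type GV oocytes, against 10.8 and 10.04 FPKM in YAP-null ones (-4.10 ± 0.387 on the log2 scale, unadjusted p = 0.00017 and adjusted p = 1 in limma, but 0.000129 to 0.0127 adjusted with any 1 library left out). Among 4-cell embryos, 89.7 FPKM in wild type stood against 33.3 FPKM in YAP-null. The 12 oocyte markers, led by Gdf9, summed to 7926 to 12320 FPKM in GV oocytes, with none listed at 0. They summed to 128 FPKM in the wild-type and 1520 FPKM in the YAP-null 4-cell library. The 4-cell embryo genes Klf5, Gata6, Tdgf1 and Nanog stayed below 1 FPKM in every GV library and exceeded 4 FPKM in both 4-cell libraries. They reached a mean of 1 FPKM over the 6 libraries, the minimum for testing, through the 4-cell libraries alone, which favoured a higher call. These 4 and Eif1a were called higher, as were 28.2% of all genes tested between the stages. The other 3 of the 8 genes on that list did not separate the stages: Klf17, the most abundant, was at 148 to 322 FPKM in GV oocytes and at 348 and 290 FPKM in the 4-cell libraries, Pou5f1 at 161 to 298 FPKM and at 207 and 322 FPKM, and Sox2 at 0.571 to 1.68 FPKM and at 0.968 and 1.36 FPKM. The GV libraries differed more by the number in their titles than by genotype. Between the numbers 23.3% (wild type) and 26.9% (YAP-null) of genes lay at least 2-fold apart, against 1.62% and 1.54% between genotypes within a number. No label says what the number stands for.

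Promoter sequences of 6 of the 10 genes were at hand, from RefSeq on GRCm38.p6, which is a later build than the mm9 of the FPKM tables. The 250 bases upstream of the start site are shown for Ccne1, Cdk2 and Cdk4, the genes with a sequence at hand that were higher in 4-cell embryos and whose level differed most between stages, written 5′ to 3′ along the gene. Capitals mark E2F words (TTCCCGC with the variants TTCGCGC as well as TTGCCGC and also TTGGCGC) in Cdk2 and the E-box word CACGTG in Cdk4, searched on both strands.
Ccne1 promoter, chr7:38107491-38107740, minus strand: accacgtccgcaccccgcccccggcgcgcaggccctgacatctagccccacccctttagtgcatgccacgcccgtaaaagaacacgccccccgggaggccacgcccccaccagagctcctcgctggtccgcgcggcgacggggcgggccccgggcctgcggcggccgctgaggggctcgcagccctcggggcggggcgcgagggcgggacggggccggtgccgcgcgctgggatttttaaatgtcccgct
Cdk2 promoter, chr10:128705052-128705301, minus strand: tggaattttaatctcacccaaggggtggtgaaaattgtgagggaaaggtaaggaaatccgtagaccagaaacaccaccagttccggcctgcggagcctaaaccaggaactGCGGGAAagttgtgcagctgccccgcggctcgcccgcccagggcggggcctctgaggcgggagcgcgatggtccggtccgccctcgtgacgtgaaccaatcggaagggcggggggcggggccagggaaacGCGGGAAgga
Cdk4 promoter, chr10:127063285-127063534, plus strand: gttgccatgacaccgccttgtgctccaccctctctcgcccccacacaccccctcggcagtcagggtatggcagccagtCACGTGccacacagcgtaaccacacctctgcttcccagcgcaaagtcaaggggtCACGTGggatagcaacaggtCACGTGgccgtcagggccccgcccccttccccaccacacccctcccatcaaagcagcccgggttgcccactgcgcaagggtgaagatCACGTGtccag
Cdk2 had 2 E2F matches, which did not overlap, and Cdk4 had 4 E-box matches. No E2F, E-box or TEAD word (CATTCC, the core bound by the partners of YAP) lay in the Ccne1 window. Of 32851 such windows in the table, 7.89% held an E2F word, 6.02% the E-box and 12.6% the TEAD word. A match is a description of the letters only. The Ccnd3 gene had 2 windows in the table, 1 of which held a single TEAD word, and Cdk6 had 1 E-box.

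The first comparison asked how the G1 and S phase genes differ between oocyte and embryo. Ccne1, Cdk4, Ccna2, Cdk2, Ccnd3 and Ccnd1 rose from GV oocytes to 4-cell embryos, Ccnd2 fell, and Ccne2 did not pass the test. Of the 8 genes that averaged 1 FPKM or more across the 6 libraries, 6 were thus called higher and 1 lower by limma with Benjamini-Hochberg adjustment at a threshold of 0.05. Over all 11451 genes tested 28.2% were called higher and 27.8% lower, so a stage call as such was common (56.0% in either direction and 62.2% at an unadjusted p under 0.05). In 6 of the 8 both 4-cell values lay above every GV value and in 1 below, against 35.1% above, 35.2% below and 70.4% either way over all genes. The median difference of the 8 was 1.73, against -0.10 over all genes tested. Ccna1 and Cdk6 were below the minimum of 1 FPKM. Ccnd1 reached it through the 4-cell libraries and Ccnd2 through the GV libraries, so their presence among the tested genes already favoured a difference. Blood markers also moved with stage: the 7 summed to 0.185 to 1.89 FPKM in GV oocytes and to 68.5 and 25.9 FPKM in the wild-type and YAP-null 4-cell libraries, where 1 and 5 of the 7 were listed at 0. Hba-a1 was called higher, but it reached the minimum through the 4-cell libraries alone, which already favoured a call. Their part in the stage differences was not tested. In bulk RNA, fewer cells that hold a transcript and less of it per cell cannot be told apart.

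**Figure D1:**
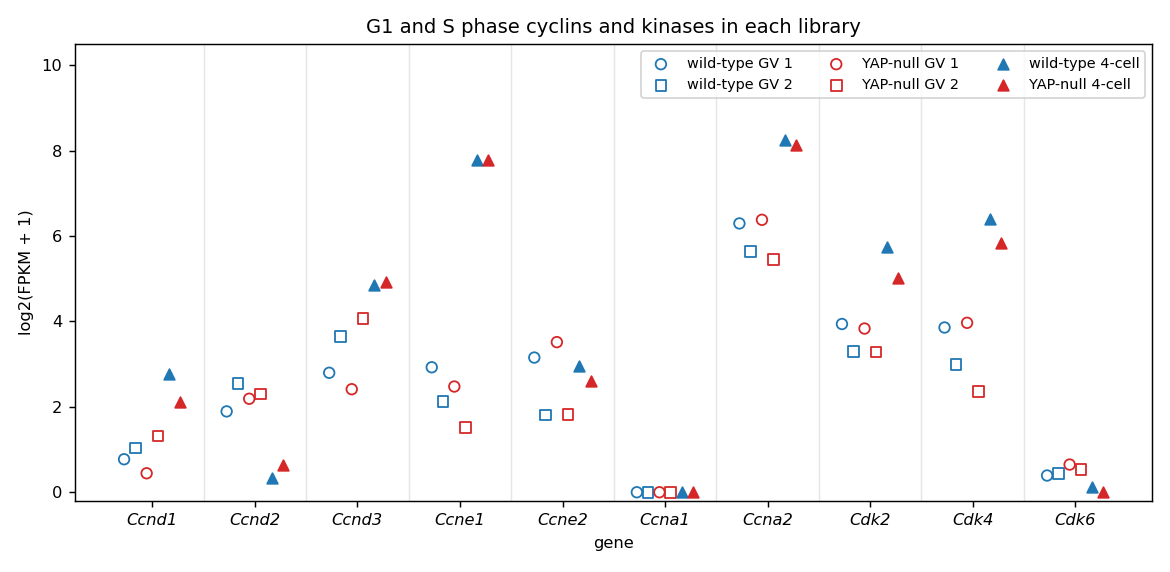
Levels of the 10 genes as log2(FPKM + 1) on the vertical axis, with 1 point per library: open circles and squares are GV libraries 1 and 2, filled triangles are 4-cell libraries, blue is wild type and red is YAP-null. Ccne1 stands apart, with both 4-cell libraries at about 219 FPKM and GV libraries at 1.86 to 6.61 FPKM.

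Ccne1 (chromosome 7, 38883003 to 38892509) encodes cyclin E1, which activates CDK2 at the entry into S phase. It was at 6.61 and 3.37 FPKM in wild-type and at 4.57 and 1.86 FPKM in YAP-null GV oocytes. In 4-cell embryos it reached 219.5 FPKM in the wild-type and 218.9 FPKM in the YAP-null library. The groups did not overlap, and the mean level was 53.4-fold higher in 4-cell embryos. The log2 difference was 5.52 ± 0.432 (SE) with an adjusted p of 0.000276 in limma, 5.26 in wild type and 5.78 in YAP-null. Ordered by level, Ccne1 lay at ranks 6177 to 9457 of the 23308 symbols in GV libraries and at ranks 337 and 277 in the wild-type and YAP-null 4-cell libraries. Both 4-cell values of Ccne1 lie above the upper bound deposited with them (210.9 and 213.5 FPKM), so its bounds were not used. The 3 genes with the most similar profile over the 6 libraries were Hpdl, Gpn3 and Sesn2, at distances of 0.386, 0.440 and 0.645 among 8047 genes that averaged 5 FPKM or more. The distance is Euclidean on centred log2 values.

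Ccne2 (chromosome 4, 11118501 to 11131926) encodes cyclin E2, the close relative of cyclin E1. It was at 7.91 and 2.503 FPKM in wild-type GV libraries 1 and 2 and at 10.4 and 2.53 FPKM in the YAP-null ones. At the 4-cell stage it stood at 6.74 FPKM in the wild-type and 5.08 FPKM in the YAP-null library. Both 4-cell values lay within the GV range. The log2 difference was 0.20 ± 0.612 (adjusted p = 0.795, limma). Its deposited locus overlaps that of Ints8 by 5622 bases, and whether the counting used strand is not given, so some reads may belong to either gene.

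The make-up of the E-type pair differed between the stages. Ccne1 made up 45.5% and 57.4% of the summed E-type FPKM in wild-type and 30.4% and 42.5% in YAP-null GV libraries. In 4-cell embryos its share was 97.0% in the wild-type and 97.7% in the YAP-null library. These shares are ratios within a library and do not depend on a scaling factor per library.

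**Figure D2:**
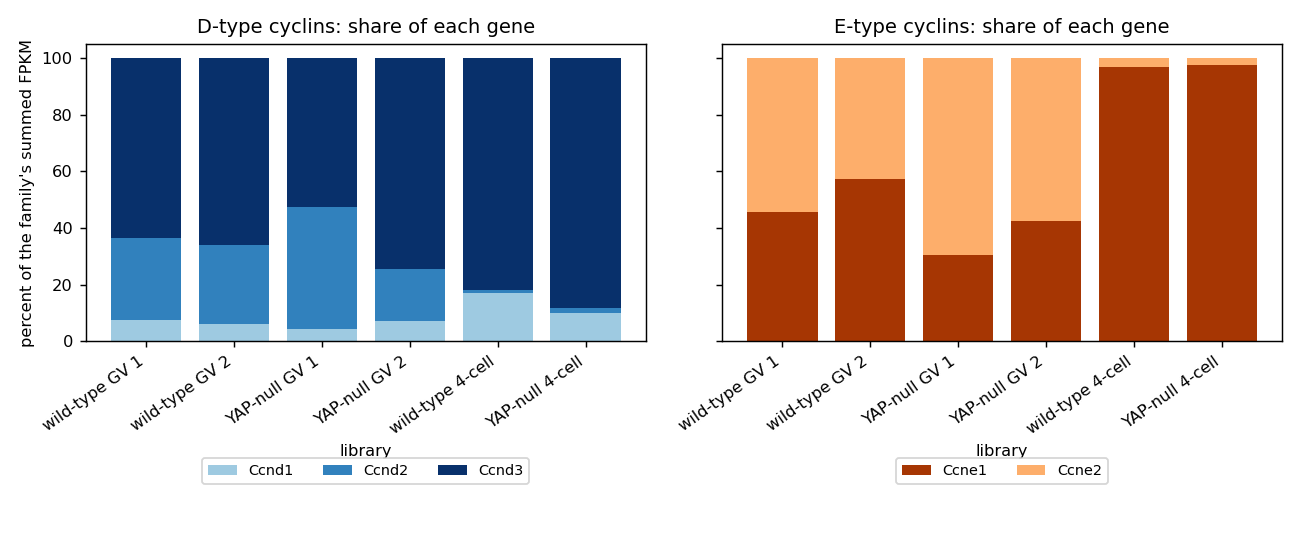
Share of each gene in the summed FPKM of the D-type cyclins (left) and of the E-type cyclins (right), in percent, with 1 bar per library. Ccne1 takes 97.0% and 97.7% of the E-type sum in 4-cell embryos, and the Ccnd2 share is 0.772% and 1.66% of the D-type sum there.

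Ccna2 (chromosome 3, 36463787 to 36470918) encodes cyclin A2, which acts with CDK2 in S phase and with CDK1 at the entry into mitosis. It had the highest level of the 10 genes in every library. It was at 77.6 and 48.8 FPKM in wild-type and at 82.4 and 42.8 FPKM in YAP-null GV oocytes, then at 305.9 and 278.9 FPKM in the wild-type and YAP-null 4-cell libraries. The stages did not overlap, and the mean was 4.65-fold higher in 4-cell embryos. The log2 difference was 2.25 ± 0.417 with an adjusted p of 0.00480 in limma. Its locus overlaps that of Exosc9 by 863 bases, a gene at 12.8 to 32.3 FPKM. Ccna1 (chromosome 3, 54849391 to 54858977), which encodes the germ-line cyclin A1 of the mouse testis, was listed at 0 in all 6 libraries, as were 24.7% of all symbols.

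Both measured kinases rose. Cdk4 (chromosome 10, 126500659 to 126504338) encodes the partner of the D-type cyclins. It was at 13.5 and 6.97 FPKM in wild-type and at 14.7 and 4.12 FPKM in YAP-null GV oocytes, then at 83.0 and 56.0 FPKM in the wild-type and YAP-null 4-cell libraries. The stages did not overlap, and the log2 difference was 2.82 ± 0.534 with an adjusted p of 0.00524 in limma. Cdk2 (chromosome 10, 128134995 to 128142107) encodes the partner of cyclins E and A. It was at 14.4 and 8.81 FPKM in wild-type and at 13.3 and 8.72 FPKM in YAP-null GV oocytes, then at 52.6 and 31.6 FPKM in the wild-type and YAP-null 4-cell libraries. The stages did not overlap either, and the log2 difference was 1.798 ± 0.378 (adjusted p = 0.00790, limma). The ratio of Cdk4 to Cdk2 FPKM was 0.473 to 1.10 in the 4 GV libraries and 1.58 and 1.77 in the wild-type and YAP-null 4-cell libraries.

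Cdk6 (chromosome 5, 3344312 to 3522225), which encodes the other partner of the D-type cyclins, was near the floor. It was at 0.312 and 0.357 FPKM in wild-type and at 0.568 and 0.446 FPKM in YAP-null GV oocytes, at 0.0917 FPKM in the wild-type 4-cell library, and listed at 0 in the YAP-null one. Of the D-type partners, Cdk4 had the higher level in every library. With no filter on low values, Cdk6 was called lower in 4-cell embryos.

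The D-type cyclins moved in different directions. Ccnd3 (chromosome 17, 47642000 to 47736637) was the D-type gene with the highest level in every library. It was at 5.96 and 11.5 FPKM in wild-type and at 4.33 and 15.8 FPKM in YAP-null GV oocytes, then at 27.9 and 29.3 FPKM in the wild-type and YAP-null 4-cell libraries. The log2 difference was 1.66 ± 0.539 with an adjusted p of 0.0388 in limma, the nearest to the threshold of the 7 calls. Its locus overlaps that of Bysl by 358 bases, a gene at 9.05 to 12.3 FPKM in GV then at 50.4 and 35.7 FPKM in the wild-type and YAP-null 4-cell libraries.

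Ccnd1 (chromosome 7, 152115836 to 152125830), whose product is the mitogen-induced D-type cyclin of many somatic cells, was low throughout. It was at 0.708 and 1.06 FPKM in wild-type and at 0.361 and 1.49 FPKM in YAP-null GV oocytes, then at 5.83 and 3.34 FPKM in the wild-type and YAP-null 4-cell libraries. The stages did not overlap, and the log2 difference was 1.55 ± 0.349 (adjusted p = 0.0103, limma). As the size depends on the pseudocount for so low a gene, it was 2.31 with a pseudocount of 0.1 FPKM and 0.69 with 5 FPKM, and both passed.

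Ccnd2 (chromosome 6, 127075727 to 127101066) was the 1 of the 8 measured genes that fell. Its product is the D-type cyclin that follicle-stimulating hormone induces in granulosa cells, the somatic cells around the oocyte. It was at 2.72 and 4.85 FPKM in wild-type and at 3.56 and 3.94 FPKM in YAP-null GV oocytes, then at 0.263 and 0.552 FPKM in the wild-type and YAP-null 4-cell libraries. The stages did not overlap, and the log2 difference was -1.75 ± 0.305 with an adjusted p of 0.00384 in limma. It was -2.96 and -0.69 with a pseudocount of 0.1 and 5 FPKM. The genes with the most similar profile were Zswim8, 9230110C19Rik and Slc25a31, at distances of 0.247, 0.262 and 0.279.

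Some granulosa and cumulus cell markers moved with Ccnd2. Of the 12 markers, 7 were under the minimum, 3 were called lower in 4-cell embryos (Inha, Cyp19a1 and Amh, which reached the minimum through the GV libraries), 1, Nr5a2, was called higher, and Kitl did not pass. Over all genes tested 27.8% were called lower and 28.2% higher. Inha was at 6.12 to 15.6 FPKM in GV oocytes then at 0.491 and 0 FPKM in the wild-type and YAP-null 4-cell libraries, and Cyp19a1, the aromatase gene, at 9.51 to 13.6 FPKM and at 0.144 and 0.938 FPKM. All 12 markers summed to 40.3 to 51.4 FPKM in GV oocytes and to 181 and 94.7 FPKM in the wild-type and YAP-null 4-cell libraries, most of which was Nr5a2 (178.9 and 92.1 FPKM). Without Nr5a2, left out after its values were seen, the sum was 29.6 to 38.2 FPKM in GV oocytes and 1.82 and 2.60 FPKM in 4-cell embryos. Of the 7 under the minimum, Fshr was at 0.250 to 1.34 FPKM in GV oocytes and listed at 0 in both 4-cell libraries. Foxl2 was at 0.466 to 0.981 FPKM, then at 0.179 and 0.220 FPKM in the wild-type and YAP-null 4-cell libraries. Star went the other way, from 0 to 0.535 FPKM in GV oocytes to 0.192 and 0.705 FPKM. In the wild-type and YAP-null 4-cell libraries 3 and 7 of the 12 were listed at 0, against 0 to 4 in GV oocytes. Their part in the level of Ccnd2 was not tested.

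**Figure D3:**
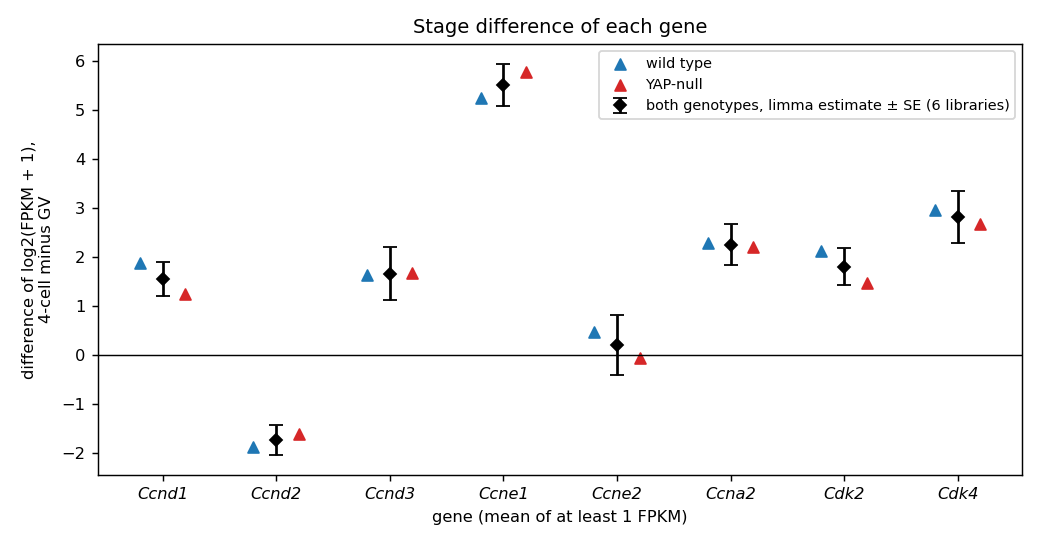
Difference of log2(FPKM + 1) between 4-cell embryos and GV oocytes for the 8 genes that averaged 1 FPKM or more: black diamonds with bars are the limma estimate ± SE over 6 libraries, blue and red triangles the difference within wild type and within YAP-null. Ccnd2 lies below 0 at -1.75, Ccne2 near 0 at 0.20, and the other 6 between 1.55 and 5.52.

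In order of their mean over the 4 GV libraries the genes ran Ccna2 (62.9 FPKM), Cdk2 (11.3), Cdk4 (9.81), Ccnd3 (9.40), Ccne2 (5.84), Ccne1 (4.10), Ccnd2 (3.77), Ccnd1 (0.903), Cdk6 (0.421) and Ccna1 (0). From Cdk2 to Ccnd2 each gene's range over the GV libraries overlapped that of the next. Ccna2 lay above all others, at 42.8 to 82.4 FPKM. The ranges of Ccnd1 and Cdk6 overlapped as well. In the mean of both 4-cell libraries the order was Ccna2 (292 FPKM), Ccne1 (219), Cdk4 (69.5), Cdk2 (42.1), Ccnd3 (28.6), Ccne2 (5.91), Ccnd1 (4.59), Ccnd2 (0.407), Cdk6 (0.0458) and Ccna1 (0). There the values of Ccne2 and Ccnd1 overlapped, and no others above 1 FPKM did.

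The stage calls rest on 2 embryo libraries. A fit with 1 of them takes all its spread from the GV libraries and assumes that embryos vary alike. Without the wild-type 4-cell library 1 of the 6 higher calls, Ccne1 (adjusted p = 0.0184), remained and the call of Ccnd2 was lost (0.0630). Without the YAP-null 4-cell library Ccne1, Cdk2 and Ccnd1 remained higher and Ccnd2 lower. The log2 differences kept their sign in these fits for all 7 genes. Ccnd3 also lost its call without wild-type GV library 1 (adjusted p = 0.0813), without YAP-null GV library 1 (0.0514), with no filter on low values (0.0637) and in a model of 4 group means (0.120).

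The genes that control these complexes were read from lists of related genes. CDK inhibitors went both ways, with 2 of 6 measured genes higher in 4-cell embryos and 1 lower, a median of 0.56, against 28.2% higher and 27.8% lower over all genes. Both of the higher genes, Cdkn1a and Cdkn2d, reached the minimum through the 4-cell libraries alone, and the lower one, Cdkn1b, through the GV libraries alone. Cdkn1a, the gene of p21, which binds cyclin E and A complexes, was at 0.413 to 1.31 FPKM in GV oocytes then at 55.1 and 37.7 FPKM in the wild-type and YAP-null 4-cell libraries (log2 difference 4.74). Cdkn2d, of the family that binds CDK4 and CDK6, differed by 3.66. Cdkn1b, the gene of p27, a brake on CDK2, fell by 3.07, from 9.74 to 17.6 FPKM in GV oocytes to 0.472 and 0.809 FPKM. Cdkn1c differed by 0.95 and did not pass.

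Of the RB and E2F factors, 1 of 12 measured genes was higher and 2 were lower, a median of 0.38, so both counts were below the shares over all genes (28.2% and 27.8%). E2f5, of the repressing kind, was at 289 to 295 FPKM in GV oocytes then at 26.3 and 143 FPKM in the wild-type and YAP-null 4-cell libraries (log2 difference -2.22). E2f2, an activating E2F, differed by -1.66 and E2f7, an atypical repressor that reached the minimum through the 4-cell libraries alone, by 2.10. Tfdp1, the gene of the E2F dimer partner, differed by 0.97 and did not pass. Among activators and degraders of G1 and S complexes 2 of 12 measured genes were higher and 1 lower, again below the 56.0% of all genes called in either direction. Skp2, whose product marks p27 for degradation, differed by 3.40 (2.11 to 5.92 FPKM in GV oocytes, 56.3 and 40.9 FPKM in the 4-cell libraries). Its ligase partner gene Skp1a differed by -3.06. The F-box gene Fbxo31 differed by 1.97, and Fbxw7, whose product marks cyclin E for degradation, by -1.09 without passing.

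Of 19 genes of the S phase machinery that E2F factors switch on in somatic cells, 4 were higher in 4-cell embryos, 2 lower and 13 not called, with a median of 0.23, where 28.2% of all genes were called higher and 27.8% lower. The higher genes include Gmnn, the inhibitor of replication licensing, at 1.91, Cdc45, of the replicative helicase, at 1.89, and Rrm2, of ribonucleotide reductase, at 1.74, on the log2 scale. The helicase subunit gene Mcm5 differed by -1.91. Among 6 mitotic genes 2 were higher, the phosphatase gene Cdc25c by 2.96 and the mitotic kinase gene Cdk1 by 1.84. Ccnb3 and Cdc25b, at -1.59 and 0.75, did not pass.

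**Figure D4:**
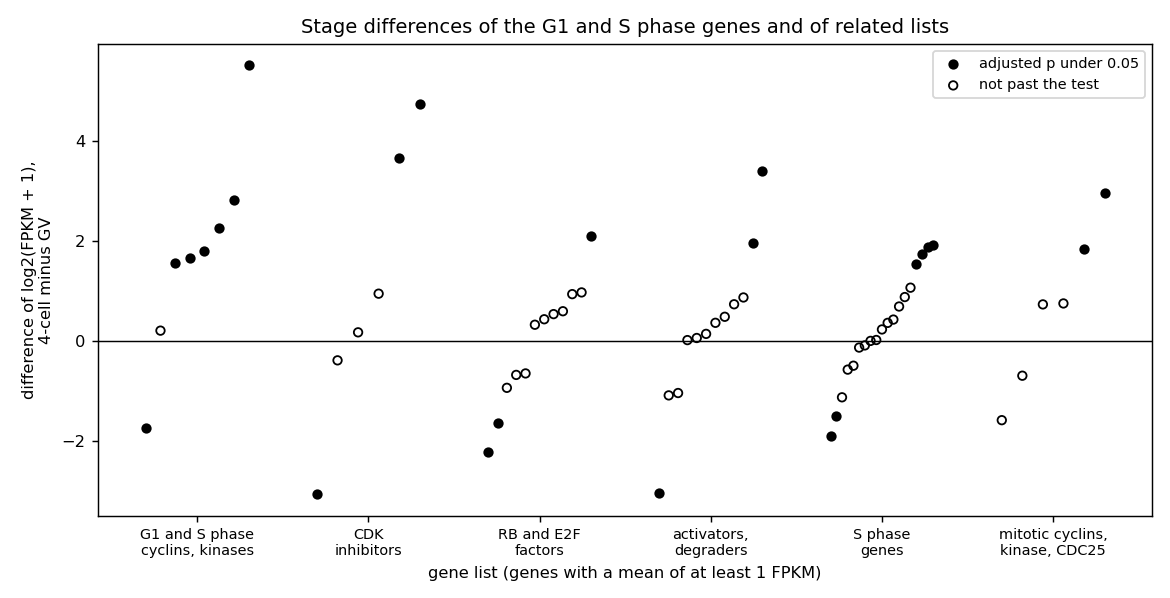
Difference of log2(FPKM + 1) between 4-cell embryos and GV oocytes for each gene of 6 lists that averaged 1 FPKM or more, filled where the adjusted p was under 0.05. The G1 and S phase cyclins and kinases have 6 filled points above 0 and 1 below, while most points of the other lists are open. Ccnd1 and Ccnd2 reached the minimum through 1 stage alone, and 56.0% of all genes tested were called. All lists were chosen with earlier results of these data known.

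The second comparison asked whether the G1 and S phase genes differ between YAP-null and wild-type GV oocytes. None of the 7 genes that averaged 1 FPKM or more passed, and in none of them did the libraries of a genotype lie wholly above or below those of the other. Over all 10462 genes 10.8% were separated in that way (5.10% higher and 5.68% lower in YAP-null), 0 passed in limma, and 22 (0.210%) had an unadjusted p under 0.05, with none of the 7 among them. The widest difference of the 7 was that of Ccne1, at -0.53 ± 0.532 (unadjusted p = 0.366), and it was lower in the YAP-null library within both numbers, by -0.45 and -0.61. With 1 library left out it ran from -1.01 to -0.05. Cdk4 differed by -0.26 ± 0.685, with 0.11 within number 1 and -0.64 within number 2. Ccna2 and Cdk2 differed by -0.05 and -0.06, with SE of 0.485 and 0.437. Ccne2 differed by 0.19 ± 0.783, and Ccnd2 and Ccnd3 by 0.03 and 0.02. An adjusted p of 1 for all 7 does not show that the genotypes were alike, as Yap1 had the same adjusted p in that fit. In simulated data the same fit recovered 0% of log2 differences of 2 planted in genes of higher level. No difference between the numbers was simulated, so that share does not give a rate for these genes. Of the 3 genes under the minimum, Ccnd1 overlapped between genotypes, Ccna1 was at 0, and Cdk6 was higher in both YAP-null libraries at levels under 0.6 FPKM.

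For Ccnd3, Ccne1, Ccne2, Ccna2, Cdk2 and Cdk4 the 2 GV libraries of a genotype lay further apart than the genotypes within a number. Library 2 was below library 1 for Ccne1, Ccne2, Ccna2, Cdk2 and Cdk4 in both genotypes, and above it for Ccnd2 and Ccnd3. Ccne2 was the 1 of the 7 genes at least 2-fold lower in library 2 in both genotypes, by -1.35 in wild type and -1.70 in YAP-null, against 4.09% of all genes. None was at least 2-fold higher in both, against 13.2%. Ccnd3 differed by 0.84 and 1.66 and Cdk4 by -0.86 and -1.61.

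The third comparison set the YAP-null 4-cell library beside the wild-type one, with 1 library each and no test. Of the 7 genes that averaged 1 FPKM or more at this stage, 0 lay 2-fold apart, against 27.7% of 10854 genes (17.7% higher and 9.97% lower in YAP-null). The median difference of the 7 was -0.35, against 0.05 over all genes. Cdk2, Ccnd1 and Cdk4 had the widest differences, all toward lower values in the YAP-null library. Cdk2 was at 60.0%, Ccnd1 at 57.3% and Cdk4 at 67.5% of the wild-type level, which is -0.72, -0.65 and -0.56 on the log2 scale. The deposited bounds of the libraries did not overlap for Cdk2 (49.0 to 56.4 FPKM for wild type, 28.6 to 34.7 FPKM for YAP-null), for Ccnd1 (4.92 to 6.74 and 2.64 to 4.03 FPKM) or for Cdk4 (67.9 to 83.5 and 44.9 to 57.2 FPKM). Those bounds cover error within a library and not the spread between embryo samples, which is unknown. Between the GV libraries of a genotype Cdk2 differed by -0.65 and -0.55, Ccnd1 by 0.27 and 0.87 and Cdk4 by -0.86 and -1.61. On that scale the 4-cell difference was slightly wider than that spread for Cdk2, within it for Ccnd1 and narrower for Cdk4. As plain FPKM ratios the Cdk2 values were close: 0.600 between the 4-cell libraries, and 0.614 (wild type) and 0.657 (YAP-null) between GV libraries 2 and 1.

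Ccne1, Ccna2 and Ccnd3 were close between the 4-cell libraries. Ccne1 was at 99.7%, Ccna2 at 91.2% and Ccnd3 at 105% of the wild-type level. The bounds of Ccna2 were apart all the same (295 to 318 FPKM for wild type, 272 to 291 FPKM for YAP-null). Ccne2 was at 75.4%, with bounds that overlap (5.67 to 7.79 and 4.14 to 6.01 FPKM). Its difference was -0.35, and -0.59 with quantile normalization, where Cdk4 was at -0.55. Scaling mattered for the near-equal genes: Ccnd3 went from 0.07 to -0.13 with median-ratio scaling and to -0.02 with quantile normalization, and Ccne1 and Ccna2 went from -0.00381 and -0.13 to 0.22 and 0.21 with quantile normalization. Median-ratio scaling moved the median of all genes from 0.05 to -0.14, and the share of 2-fold genes that were higher in YAP-null from 64.0% to 50.2%. Cdk2, Cdk4, Ccnd1 and Ccne2 were lower in the YAP-null library under every setting tried. Ccnd2, at 0.552 FPKM against 0.263 FPKM, and Cdk6 were under the minimum, with bounds that overlap.

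**Figure D5:**
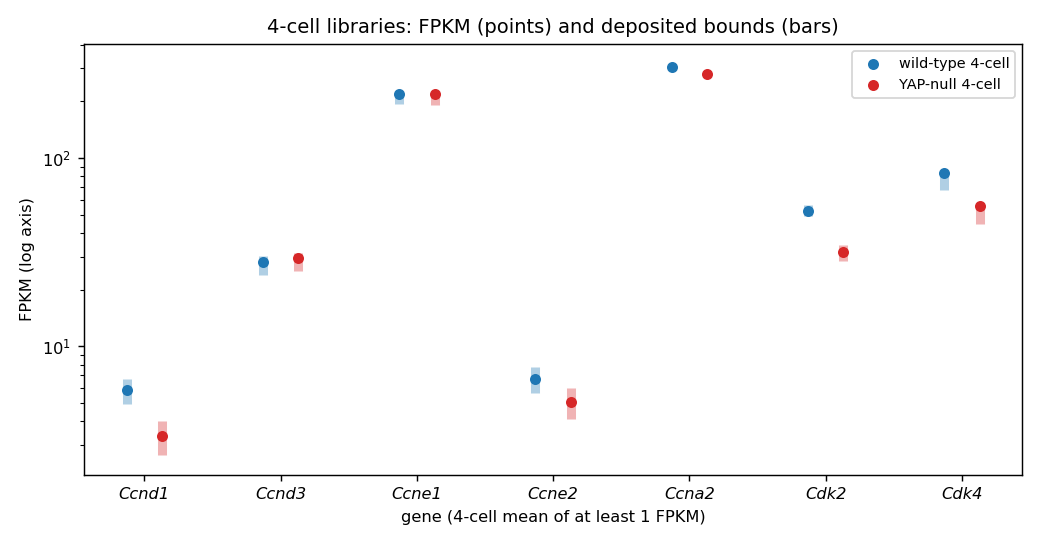
FPKM (log axis) of the 7 genes with a 4-cell mean from 1 FPKM upward in the wild-type (blue) and YAP-null (red) 4-cell libraries, where points are values and pale bars the deposited bounds. The bars are apart for Cdk2, Ccnd1, Cdk4 and, narrowly, Ccna2, and for Ccne1 both points lie above their bars.

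Other transcripts differed far more between these 2 libraries. All 12 oocyte markers were at least 2-fold higher in the YAP-null library (median 3.50), and 4 of 8 genes of the 4-cell embryo at least 2-fold lower. Over all genes the shares were 17.7% higher and 9.97% lower. Of the oocyte markers, Mos and Figla reached the minimum through the YAP-null library alone. Their part in the values of Cdk2, Ccnd1 and Cdk4 was not tested. In a test of whether the stage difference depends on genotype, where the single 4-cell libraries are assumed to vary like the GV libraries, 0 of the 8 genes passed in limma and 18 of 11451 genes (0.157%) did. The smallest unadjusted p among the 8 was 0.396, that of Ccnd1. Over all genes 1181 had an unadjusted p under 0.05. Yap1 itself, whose stage difference was 2.70 higher in YAP-null than in wild type on the log2 scale, did not pass that test either. The result for the 8 genes therefore does not show that their stage differences were alike between genotypes. The genes with the profile most like that of Cdk2 were Eif3f, 3110002H16Rik and Polrmt, at distances of 0.148, 0.237 and 0.239. Eif3f, a translation initiation factor gene, stood at 138.5 FPKM for the wild-type 4-cell library and 81.3 FPKM for the YAP-null one.

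Among the related lists, the S phase genes lay mostly below 0 between the 4-cell libraries, 16 of 19 where 47.8% of all genes did, with a median of -0.55. At least 2-fold lower in YAP-null were 3 of them and higher 0, beside 9.97% and 17.7% over all genes, and the same shares stand behind the counts of the lists that follow. Mcm4 differed by -1.47 (27.7 FPKM for wild type, 9.39 FPKM for YAP-null) and Cdc6, which loads the replicative helicase, by -1.23. Of 6 measured CDK inhibitors 6 lay below 0 and 1 was at least 2-fold lower, Cdkn2a, at 3.37 FPKM in wild type and listed at 0 in YAP-null. Cdkn2a and Cdkn2b (1.39 FPKM for wild type, 0.743 FPKM for YAP-null) reached the minimum through the wild-type library alone, which already favoured a lower value in YAP-null. Cdkn1a differed by -0.54. The RB and E2F factors had a median of 0.74, with 5 of 12 at least 2-fold higher and 1 lower. E2f5 differed by 2.40 and E2f4 by 1.70 (43.7 FPKM for wild type, 144 FPKM for YAP-null). Of 11 activators and degraders 1 was 2-fold higher, the ubiquitin ligase scaffold gene Cul1 at 1.43, and 2 were lower, among them Ccnh, the gene of the cyclin of the CDK-activating kinase, at -1.16. None of the 6 mitotic genes lay 2-fold apart, with Ccnb3 at 0.97 and Cdc25b at -0.73.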

How the data were processed

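Purified mRNA was sequenced in paired ends, per the labels' protocols. The authors deposited 1 gene table per library with FPKM values and lower and upper bounds for them, per the file headers, with the level of the bounds not stated. Reads came from CASAVA 1.8 and TopHat with mm9, per the submitters' processing notes; which tool made the FPKM values, and with what settings, was not given in the sources used here. Of 23813 lines, 1 whose quantification failed was dropped, and values of 260 symbols with several loci were added up. Read totals are unknown. From the bounds of 6008 genes the relative depth, with wild-type GV library 1 as 1, was 0.365 to 0.440 in the other GV libraries, 0.971 in the wild-type and 0.797 in the YAP-null 4-cell library. Starts in the tables count from 0 and are printed from 1.

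FPKM values were compared as log2(FPKM + 1), for genes averaging 1 FPKM or more in the libraries of a comparison. The GV genotypes (4 libraries) and the stages (6 libraries, genotype as a term) were tested with limma 3.58.1 (limma-trend, R 4.3.3), two-sided, with Benjamini-Hochberg adjustment over all genes at 0.05. The 4-cell genotypes were compared by a 2-fold rule without a test. By exact permutation, the smallest p would be 0.0667 (one-sided) for 4 libraries against 2 and 0.333 (two-sided) for 2 against 2. Both fits were tested on simulated data, with 50 planted differences of each size in genes of higher level. Noise was drawn independently for each library, so no difference between the GV numbers was simulated. The GV fit recovered 0% of planted log2 differences of 1 and of 2, 60% of those of 4 and 80% of those of 6. For the stage fit the shares were 2%, 8%, 78% and 94%. False calls numbered 8 in the GV fit and 3 in the stage fit. Alternatives changed the pseudocount, the minimum, the scaling, the model and the libraries.

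The genes and the lists were chosen with earlier results of these data known. Of related lists, the 4 genes with the widest stage difference and the 2 with the widest 4-cell difference were named, with similar profiles for the genes with the largest rise, the largest fall and the widest 4-cell difference. Marker genes other than the most abundant of each list, and Nr5a2 as the marker to leave out, were picked after their values were seen. Markers of ovarian stroma summed to 0.0512 to 0.673 FPKM in GV oocytes and to 4.26 and 0.363 FPKM in the wild-type and YAP-null 4-cell libraries.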

Additional observations from a re-analysis of the deposited data

How the results depend on the processing

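The stage differences of Ccne1, Ccna2, Cdk2, Cdk4, Ccnd1, Ccnd3 and Ccnd2 kept their direction under every alternative run. The calls other than that of Ccne1 depended on which 4-cell libraries were included. Leaving out 1 library gave 1 to 6 G1 and S phase genes higher and 0 to 1 lower, out of 1650 to 3182 genes higher (3228 with all libraries) and 1315 to 3171 lower (3180); the lowest counts came without the wild-type 4-cell library, and 2115 and 2100 genes were called without the YAP-null one. Lower calls among the G1 and S phase genes numbered 2 with no filter on low values, where Cdk6 joined, and 0 at a mean of at least 5 FPKM, where Ccnd2 was not tested. With 1 library left out the stage difference of Ccne2 ran from -0.12 to 0.61 and that of Yap1 from -1.11 to 1.59. Without the wild-type 4-cell library the stage difference of Ccne2 was -0.06.

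In the GV comparison 0 G1 and S phase genes passed under any alternative. Over all genes 1 to 5 were called higher and 1 to 2 lower with 1 library left out, in fits that assume the lone library varies like the others. The GV difference then ran from -0.30 to 0.35 for Ccnd2, -0.81 to 0.85 for Ccnd3 and -0.66 to 1.03 for Ccne2. It ran from -0.52 to 0.41 for Ccna2, -0.38 to 0.26 for Cdk2 and -1.07 to 0.54 for Cdk4. Each such fit leaves 1 genotype with a single number, so these ranges also hold the difference between numbers. Within a number Cdk2 differed by -0.11 and -0.01 and Ccne2 by 0.36 and 0.01, while Ccnd2, Ccnd3, Ccna2 and Cdk4 changed sign. The sign of these differences is not settled by these libraries. With the replicate block 1 gene was called higher and 1 lower, and of the G1 and S phase genes 0; the lower one was Yap1, whose adjusted p went from 1 to 7.57e-05 in limma. Samples with the same number deviated together (r = 0.849 across 10462 genes in the libraries numbered 1), but with 2 pairs and no label that ties a number to an animal or day this is a hint from the data only.

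At the 4-cell stage 834 genes were at least 2-fold higher and 441 lower in YAP-null with a pseudocount of 5 FPKM, and 1083 and 640 at a mean of at least 5 FPKM, against 1925 and 1082. The cause of these shifts was not tested. Low levels limit Ccnd1, Ccnd2 and Cdk6, whose size follows the pseudocount.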
